A study of Homo sapiens with 6 samples.

Results

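The heat shock proteins described here are 10 chaperone and co-chaperone genes of the cytosol and the mitochondria, *HSPA8*, *HSPA1A*, *HSPA1B*, *HSPB1*, *BAG3*, *DNAJB1*, *HSPH1*, *HSP90AA1*, *HSPD1* and *HSPE1*. They were taken by name from a table of read counts with 17222 gene names, and all 10 had a row and passed the filter on low counts, which kept 14660 names for testing. RNA was sequenced from H226, a human cell line that the study calls squamous lung carcinoma. The aim was to ask which genes respond when the long noncoding RNA *SWINGN* (*LINC00565*), an interactor of the SWI/SNF chromatin remodelers, is depleted. The 3 ASO_CTRL libraries came from cells transfected with a control antisense oligonucleotide (ASO), and the 3 ASO_LINC#3 libraries from cells given an ASO against *SWINGN*. All cells carried a transient transfection and were collected after 48 h, so the comparison rests on 1 cell line and 1 targeting oligonucleotide. The level of *SWINGN* itself was not analysed here, so the depletion was not checked in these libraries. The labels do not say whether replicates were separate cultures, while the study's reporting summary gives biological triplicates as the rule for its experiments, so p-values measure the spread between these libraries.

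Heat shock proteins hold newly made or damaged proteins in a state from which they can fold. In the cytosol, HSP70 proteins bind exposed hydrophobic stretches in cycles of ATP hydrolysis that J-domain proteins start and nucleotide exchange factors end, small heat shock proteins hold unfolded clients without using ATP, and HSP90 finishes the folding of kinases and steroid receptors. In the mitochondrial matrix, the HSP60 ring and its HSP10 lid enclose single polypeptides. Many of these genes are switched on together by heat shock factor 1 (HSF1), which binds inverted GAA units, and tumor cells commonly express them at high levels without heat.

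The DNA just upstream of the genes is shown first because inverted GAA units are what the genes are best known to share. Some of the genes that hold them were called as changed after the knockdown and others were not. A part of these units in the changes was not tested. The 250 bases before the Ensembl canonical transcript start of each gene on GRCh37 were searched for GAANNTTC and TTCNNGAA, each of which is its own reverse complement and so covers both strands, with overlapping matches allowed. Such a pair of inverted units stood upstream of 8 of the 10 genes, against 1873 of 19869 protein-coding genes (9.43%). A run of 3 alternating units stood upstream of 4 of the 10, namely *HSPA8*, *HSP90AA1*, *HSPH1* and *HSPD1*, against 0.322% of protein-coding genes. *BAG3* and *HSPE1* had neither in this window. These windows were chosen after windows built by RefSeq on GRCh38.p14 had been searched, taking the first listed window of each gene. That window lies at another start for *HSP90AA1*, *HSPH1*, *DNAJB1* and *HSPD1*. It held a pair in the 250 upstream bases for 4 of the 10 genes, beside 11.6% of all 35116 windows. *HSP90AA1* and *HSPD1* had 2 RefSeq windows each and *DNAJB1* had 3, and only the first was used for these genes. A CCAAT box or its complement, searched in the same RefSeq bases, was present for 5 of the 10 genes and in 32.01% of all windows.

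The 3 HSP70 genes carry the units below, in GRCh37 coordinates and read 5′ to 3′ on the gene's strand, with pairs or runs of units in capitals and 20 bases on either side.
HSPA8 chr11:122932867-122933094 (minus strand): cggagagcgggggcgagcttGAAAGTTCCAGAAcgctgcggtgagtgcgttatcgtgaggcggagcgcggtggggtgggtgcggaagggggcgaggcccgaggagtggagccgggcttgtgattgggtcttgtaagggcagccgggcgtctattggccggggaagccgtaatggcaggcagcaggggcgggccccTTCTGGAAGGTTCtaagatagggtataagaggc
HSPA1A chr6:31783194-31783241 (plus strand): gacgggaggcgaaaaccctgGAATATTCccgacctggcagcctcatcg
HSPA1B chr6:31795390-31795437 (plus strand): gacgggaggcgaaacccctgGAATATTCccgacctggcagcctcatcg

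*HSPA8* held a run of 3 units at 230 to 218 bases and a second run at 55 to 43 bases before its start. *HSPA1A* and *HSPA1B*, whose starts lie 12195 bases apart on chromosome 6, carried the same pair, 106 to 99 and 105 to 98 bases before their starts. The other genes with units were the small heat shock protein gene *HSPB1*, the J-domain gene *DNAJB1*, *HSPH1*, *HSP90AA1* and *HSPD1*, shown in the same way except that the *HSPD1* stretch begins at the edge of its window.
HSPB1 chr7:75931788-75931835 (plus strand): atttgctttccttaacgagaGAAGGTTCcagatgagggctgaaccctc
DNAJB1 chr19:14629229-14629306 (minus strand): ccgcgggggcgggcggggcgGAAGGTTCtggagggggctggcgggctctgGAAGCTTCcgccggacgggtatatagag
HSPH1 chr13:31736068-31736200 (minus strand): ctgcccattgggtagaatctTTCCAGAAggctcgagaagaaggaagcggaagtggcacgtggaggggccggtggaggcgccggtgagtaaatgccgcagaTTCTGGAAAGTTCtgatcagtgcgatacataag
HSP90AA1 chr14:102553422-102553489 (minus strand): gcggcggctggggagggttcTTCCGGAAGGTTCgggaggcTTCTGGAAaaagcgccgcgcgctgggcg
HSPD1 chr2:198364772-198364814 (minus strand): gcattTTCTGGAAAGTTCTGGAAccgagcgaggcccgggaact

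*HSPD1* had the densest group, 2 overlapping runs at 245 to 228 bases before its start. *HSPD1* and *HSPE1* are transcribed away from each other from starts 539 bases apart, and the same units lie 294 to 311 bases from the *HSPE1* start, just beyond the window searched for that gene. A match to these letters is a description of the sequence and not evidence that a factor binds there.

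**Figure D1:**
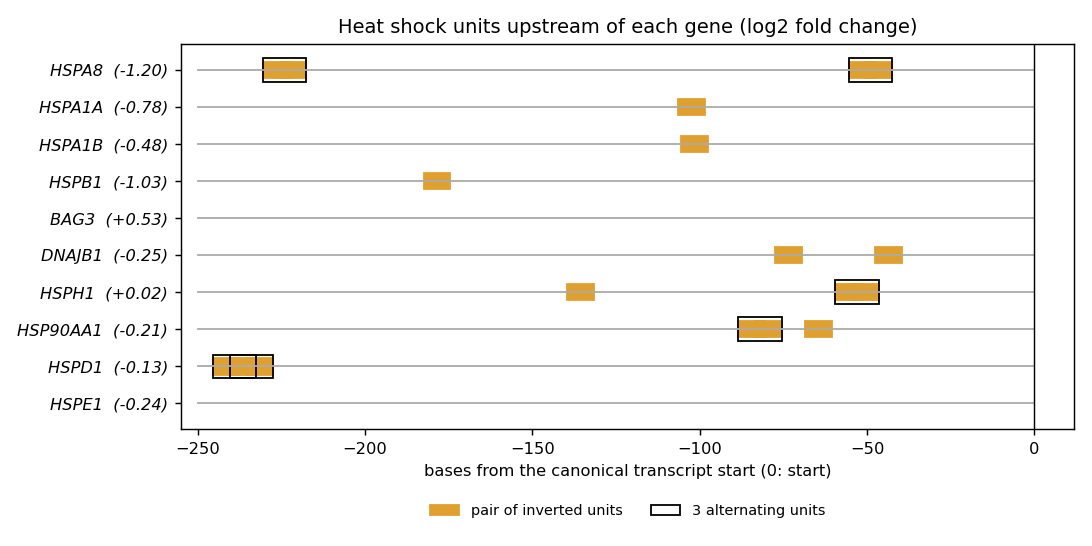
Position of inverted GAA units in the 250 bases upstream of the canonical start of each of the 10 genes, with the log2 fold change after the knockdown beside the name. Filled boxes are pairs and outlined boxes are runs of 3 units. Units were found for 8 of the 10 genes, including *HSPA8*, which changed by -1.20, and *HSPH1*, which differed by 0.02.

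Of the 10 genes, 2 were lower after *SWINGN* depletion and none was higher in edgeR's quasi-likelihood test over all tested genes, where a call needed a log2 fold change past 0.5 in size and an adjusted p under 0.01. *HSPA8*, the constitutive cytosolic HSP70, fell by 1.20 on the log2 scale and *HSPA1A*, a stress-inducible HSP70, fell by 0.78. Over all tested genes the same thresholds called 2.63% lower and 4.91% higher. At an unadjusted p below 0.05, 4 of the 10 genes were lower, against 15.3% of all tested genes, and 1, *BAG3*, was higher, against 17.1%. DESeq2 called 3 of the 10 lower and 0 higher, against 4.32% and 6.57% of all tested genes. With limma-voom 2 were called lower and 0 higher, against 3.02% and 5.26%. The median log2 fold change of the 10 genes was -0.24, and that of all tested genes was -0.00. The 10 genes were chosen with earlier results of these data known. The shares here and in the next paragraph are therefore a description and not an independent test of the group.

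Separation of the libraries gave a wider group. *HSPA8*, *HSPA1A*, *HSPA1B* and *HSPB1* were lower in all 3 ASO_LINC#3 libraries than in all 3 controls, 4 of 10 genes, while 17.3% of all tested genes were. None of the 10 was above all controls in every knockdown library, against 18.7% of all tested genes. An exact two-sided permutation test gave p = 0.1 for each of these 4 genes, the smallest value that 3 against 3 libraries allow.

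**Figure D2:**
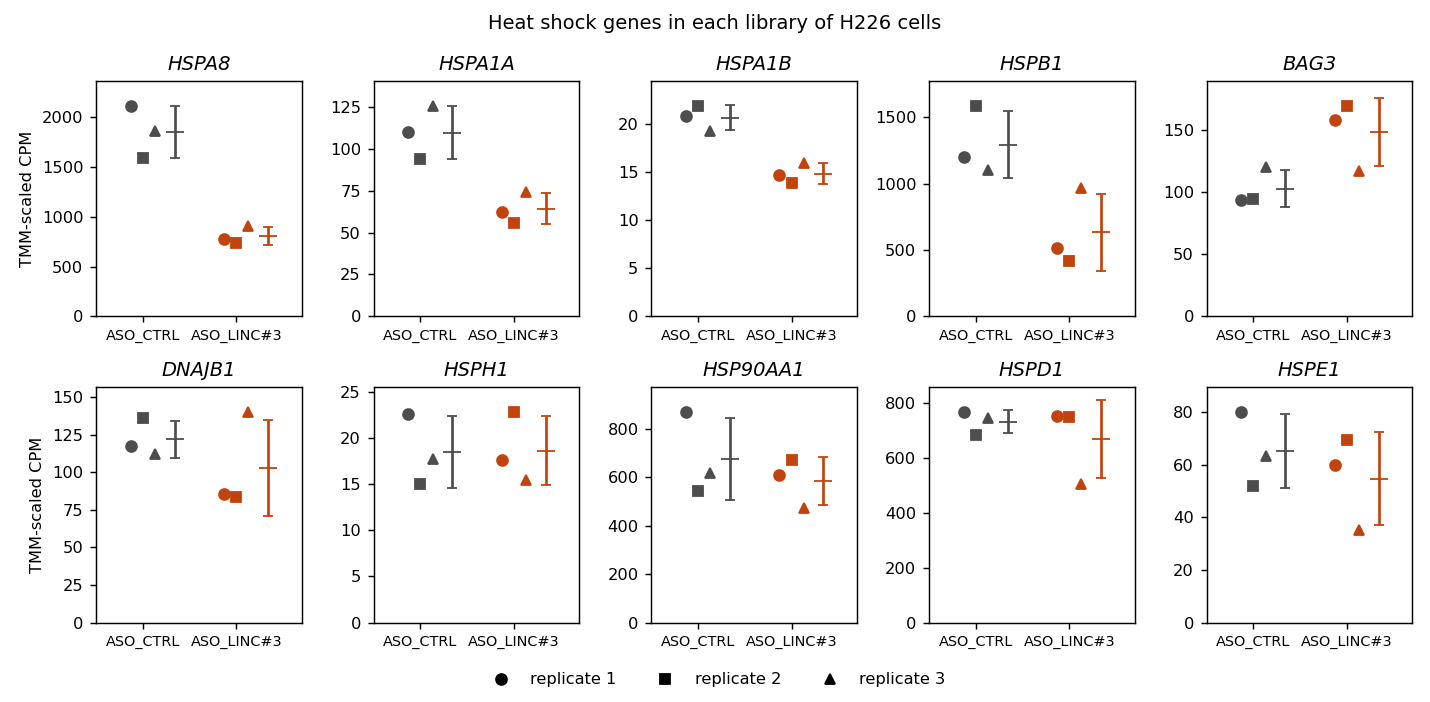
TMM-scaled CPM of the 10 genes in each of the 6 libraries, with the mean and SD of each group of 3 beside the points, all axes starting at 0. The knockdown libraries of *HSPA8* lie between 737 and 908 CPM and its controls between 1587 and 2109, whereas the groups overlap for *BAG3*, *DNAJB1*, *HSPH1*, *HSP90AA1*, *HSPD1* and *HSPE1*.

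*HSPA8* encodes HSC70, the HSP70 that all cells keep at work in folding, clathrin uncoating and chaperone-mediated autophagy, and lies at chr11:122928197-122933938 on the minus strand of GRCh37. Its level was 2109, 1587 and 1863 CPM in ASO_CTRL replicates 1 to 3, where CPM is a count divided by library size after edgeR's scaling by the trimmed mean of M-values (TMM). In ASO_LINC#3 replicates 1 to 3 it was 774, 737 and 908 CPM. Every knockdown library lay far below every control, and the spread within the knockdown group was small against that gap. The means were 1853 ± 261 CPM in controls and 806 ± 89.9 CPM after the knockdown (SD, n = 3), 2.30-fold lower. The log2 fold change of -1.20 (SE 0.14, 95% interval -1.51 to -0.89) had an adjusted p of 0.000340 in edgeR's test, rank 185 among the tested genes. *HSPA8* stayed called in all 6 leave-one-out fits, at -1.29 to -1.10 with an adjusted p of at most 0.00401, and passed in all 17 settings that used all libraries.

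The processed pseudogene *HSPA8P8* had counts equal to 31.95% of those of *HSPA8*, and reads from near-identical copies may have been split between both rows. This share was 31.1 to 32.7% in controls and 30.2 to 35.6% after the knockdown, so the groups overlapped. *HSPA8P8* was itself lower, by -1.13 (SE 0.13, adjusted p = 0.000269 in edgeR). With *HSPA8* and its pseudogenes summed into 1 row the log2 fold change was -1.17 (adjusted p = 0.000298). *HSPA8* also shares 555 exon bases with an unnamed long noncoding RNA gene on the opposite strand. On its own strand it shares 87 and 88 exon bases with the snoRNA genes *SNORD14D* and *SNORD14C*. These genes have no row, and reads at the shared bases may come from either gene.

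*HSPA1A* and *HSPA1B* are neighbouring intronless genes in the major histocompatibility complex (chr6:31783320-31785723 and chr6:31795515-31798031, plus strand) that encode nearly the same stress-inducible HSP70, so the assignment of reads to one or the other is uncertain. *HSPA1A* stood at 110, 93.8 and 125 CPM in ASO_CTRL replicates 1 to 3 and at 62.5, 56.0 and 74.0 CPM in ASO_LINC#3 replicates 1 to 3. The groups did not overlap, and the means of 110 ± 15.7 and 64.1 ± 9.14 CPM (SD, n = 3) differed 1.72-fold. The log2 fold change was -0.78 (SE 0.16, 95% interval -1.13 to -0.43) with an adjusted p of 0.00745 in edgeR's test, close to the threshold. The call was lost in 5 of the 6 leave-one-out fits, with log2 fold changes from -0.89 to -0.67 over the 6 fits. The adjusted p rose as far as 0.0484 without ASO_CTRL replicate 3, and stood at 0.0299 and 0.0131 without ASO_CTRL replicates 1 and 2 and at 0.0405 and 0.0360 without ASO_LINC#3 replicates 1 and 2. Only the fit without ASO_LINC#3 replicate 3 kept it, at 0.000636.

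*HSPA1B* was the less abundant row, with 20.9, 21.9 and 19.3 CPM in the controls and 14.7, 13.9 and 16 CPM in the knockdown libraries. Its groups did not overlap either, but the log2 fold change of -0.48 (SE 0.16, 95% interval -0.83 to -0.13) did not pass (adjusted p = 0.0609). Reads on *HSPA1B* per 100 on *HSPA1A* ranged from 15.4 to 23.3 in controls and from 21.6 to 24.8 after the knockdown, and these ranges overlapped. With both genes counted as 1 row, the log2 fold change was -0.73 with an adjusted p of 0.00719. *HSPA1B* also shares 920 exon bases with an unnamed long noncoding RNA gene on the same strand, which has no row. Reads there may come from either gene.

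*HSPB1* encodes HSP27, an ATP-independent chaperone that holds unfolding proteins and caps actin filaments, from chr7:75931990-75933612 on the plus strand. It measured 1197, 1583 and 1104 CPM in ASO_CTRL replicates 1 to 3 and 517, 417 and 965 CPM in ASO_LINC#3 replicates 1 to 3. Replicates 1 and 2 of the knockdown were well below the controls, and replicate 3 was close to the lowest control. The means were 1295 ± 254 and 633 ± 292 CPM (SD, n = 3). The log2 fold change of -1.03 was the second furthest from 0 of the 10 genes, but its SE of 0.27 (95% interval -1.63 to -0.44) was the largest and the adjusted p of 0.0243 did not pass the threshold.

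Whether *HSPB1* passed depended on ASO_LINC#3 replicate 3 and on the setting, as it passed in 4 of the 17 settings that used all libraries. Relative to the control mean, the log2 change was -1.31, -1.62 and -0.41 in knockdown replicates 1 to 3, and the fit without replicate 3 gave -1.47 (adjusted p = 6.7e-05) where the other 5 fits missed the threshold, with -0.81 as the value nearest 0. *HSPB1* also passed with DESeq2 (-1.03, adjusted p = 0.00161) and after the dependence of each library on GC content and transcript length was taken out (-1.003, adjusted p = 0.00136). Its transcript is 64.3% GC, against a median of 47.8% over tested genes. After that correction the 3 knockdown libraries stood at -1.03, -1.31 and -0.70. The pseudogene rows *HSPB1P1* and *HSPB1P2* held counts equal to 16.5% and 8.96% of those of *HSPB1*, and in both the share was higher in every knockdown library (19.1 to 21.2% and 10.4 to 15.4%) than in any control (14.5 to 16.7% and 6.22 to 9.01%). Summed with them, *HSPB1* differed by -0.93 (adjusted p = 0.0339). Both *HSPB1* and *HSPA1A* belong to a set of genes that the study selected on these same libraries, so their direction there is not independent of the values given here.

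**Figure D3:**
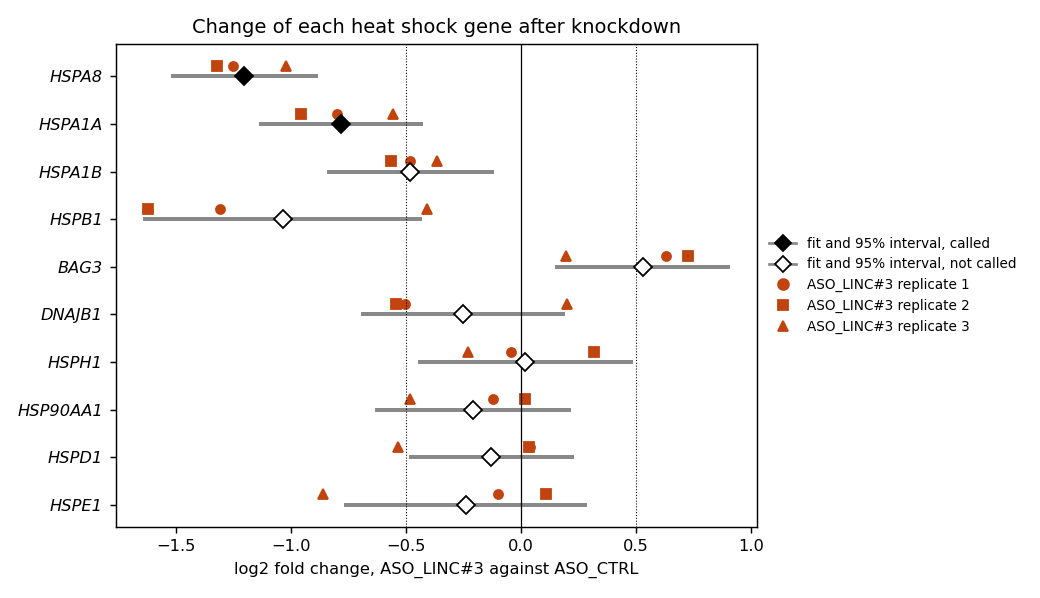
Log2 fold change of the 10 genes, ASO_LINC#3 against ASO_CTRL. Diamonds and bars give the edgeR fit with its 95% interval, filled where the thresholds were passed, the other symbols give each knockdown library against the control mean, and dotted lines mark 0.5 on either side of 0. *HSPB1* spreads from -1.62 to -0.41 over its 3 knockdown libraries, whereas *HSPA8* spreads from -1.32 to -1.02.

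The co-chaperones that set the HSP70 cycle did not pass the thresholds. *BAG3*, a nucleotide exchange factor that hands HSP70 clients to selective autophagy and binds small heat shock proteins (chr10:121410892-121437331, plus strand), was the 1 gene of the 10 with an interval above 0. It was at 94.0, 94.3 and 120 CPM in ASO_CTRL replicates 1 to 3 and at 158, 169 and 117 CPM in ASO_LINC#3 replicates 1 to 3, so that knockdown replicate 3 fell within the controls. The log2 fold change was 0.53 (SE 0.17, 95% interval 0.16 to 0.90, adjusted p = 0.0513). Without ASO_LINC#3 replicate 3 it was 0.67 and passed (adjusted p = 0.00219).

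*DNAJB1*, or HSP40, is the J-domain protein that loads clients on HSP70 and starts ATP hydrolysis, and lies at chr19:14625581-14671203 on the minus strand. Its level was 118, 136 and 112 CPM in the controls and 85.7, 83.3 and 140 CPM in knockdown replicates 1 to 3, where replicate 3 was the highest of all 6 libraries and the other two were the lowest. The log2 fold change was -0.25 (SE 0.20, 95% interval -0.69 to 0.19, adjusted p = 0.415), and without ASO_LINC#3 replicate 3 it was -0.53 and passed (adjusted p = 0.00573). *DNAJB1* shares 525 exon bases with *TECR* on the opposite strand, and the strand setting of the counting is not given in the sources used here, so reads there may come from either gene. *HSPH1*, the HSP110 that acts as an exchange factor and works with HSP70 on aggregates (chr13:31709110-31736525, minus strand), had 22.6, 15.0 and 17.7 CPM in controls and 17.6, 22.8 and 15.5 CPM after the knockdown. These values were interleaved, and the difference of 0.02 had a 95% interval of -0.44 to 0.48.

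*HSP90AA1* encodes the stress-inducible cytosolic HSP90, which matures kinases and hormone receptors, from chr14:102547079-102606036 on the minus strand. It measured 868, 542 and 617 CPM in ASO_CTRL replicates 1 to 3 and 609, 671 and 474 CPM in ASO_LINC#3 replicates 1 to 3. The groups overlapped, with the highest and the second lowest value both in controls, and the log2 fold change was -0.21 (SE 0.19, 95% interval -0.62 to 0.21, adjusted p = 0.483). The interval leaves room for a fall of up to 0.62, so the data do not show that *HSP90AA1* was unaffected. It overlaps *WDR20* on the opposite strand over 197 exon bases.

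The mitochondrial pair is transcribed from 1 shared upstream region on chromosome 2, *HSPD1* (HSP60, the folding chamber, chr2:198351308-198381461) on the minus strand and *HSPE1* (HSP10, its lid, chr2:198364864-198368173) on the plus strand. *HSPD1* was at 766, 685 and 745 CPM in controls and 754, 750 and 505 CPM in knockdown replicates 1 to 3. *HSPE1* was at 80, 52.0 and 63.4 CPM in controls and 59.8, 69.3 and 35.2 CPM in knockdown replicates 1 to 3. For both genes knockdown replicates 1 and 2 lay within the range of the controls and replicate 3 was the lowest of the 6 libraries. The log2 fold changes were -0.13 for *HSPD1* (SE 0.16, 95% interval -0.48 to 0.22, adjusted p = 0.616) and -0.24 for *HSPE1* (SE 0.24, 95% interval -0.76 to 0.28, adjusted p = 0.519). Reads on *HSPE1* per 100 reads on *HSPD1* were 10.4, 7.58 and 8.51 in controls and 7.94, 9.24 and 6.97 after the knockdown, and the ranges overlapped. The row *HSPD1P1*, a pseudogene, held 9.42% as many counts as *HSPD1*, and the genes share 135 exon bases on opposite strands.

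ASO_LINC#3 replicate 3 was also the library with the fewest counts on genes, 3686828, against 5738340 to 10546786 in the others. For 6 of the 10 genes it was the knockdown library nearest to the control mean, and among the knockdown libraries it was the lowest for 5 genes and the highest for 5. Leaving it out raised the number of the 10 genes that passed to 5, namely *HSPA8*, *HSPA1A*, *HSPB1* and *DNAJB1* lower and *BAG3* higher. Each of the other 5 fits that left out a library called 1 gene, *HSPA8*. Over all tested genes the count went from 1106 to 2616 without this library. The part of its depth in these values was not tested.

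**Figure D4:**
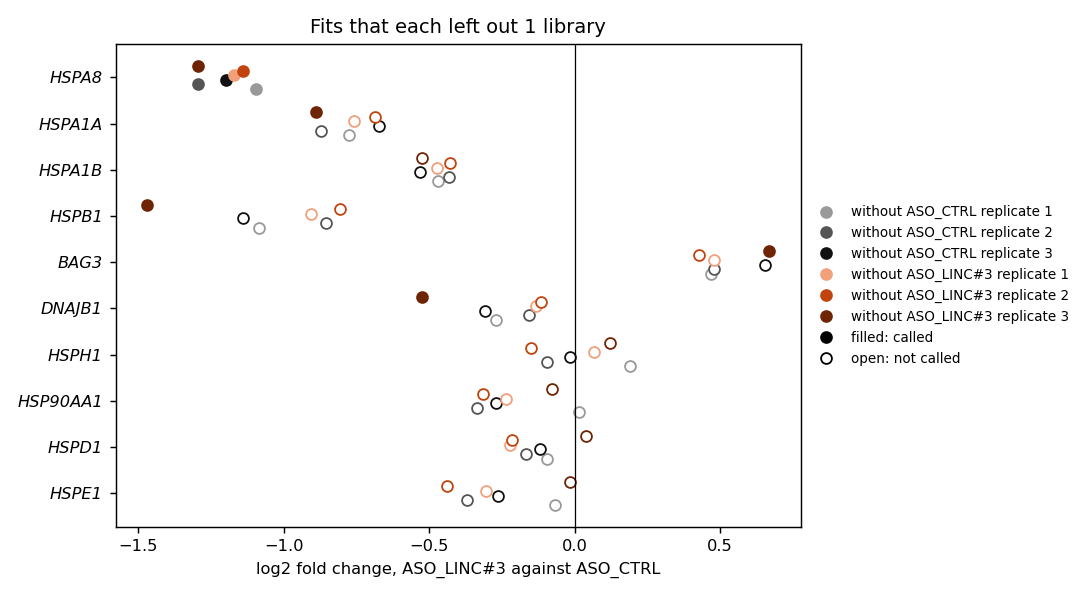
Log2 fold change of the 10 genes in 6 edgeR fits that each left out 1 library, filled where the thresholds were passed. *HSPA8* is filled in all 6 fits, between -1.29 and -1.10, and the fit without ASO_LINC#3 replicate 3 is the only one in which *HSPB1*, *DNAJB1*, *BAG3* and *HSPA1A* are filled.

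The other genes of the chaperone network were taken from lists of 107 names, of which 96 had a row and 92 were tested. Of these 92, 1 rose and 2 fell, where 4.91% and 2.63% of all tested genes did, so neither share was above that of all genes. The median log2 fold change was -0.03, with 42 above 0 and 50 below. At an unadjusted p below 0.05 in edgeR's test, 12 of the 92 were higher and 8 lower, against 17.1% and 15.3% of all tested genes. Other mitochondrial chaperones and proteases gave 4 higher and 3 lower of 15. Other cytosolic J-domain genes gave 3 higher and 1 lower of 15. DESeq2 called 3 higher and 2 lower, and limma-voom 1 higher and 2 lower, beside the shares of all genes given above for each tool. The groups did not overlap for 17 of the 92 in the higher direction and 11 in the lower, beside 18.7% and 17.3% of all tested genes. All 3 calls were lost in each of the 5 fits that left out a library other than ASO_LINC#3 replicate 3, and without that replicate 6 of the listed genes were called.

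*HSPA2*, an HSP70 best known from spermatogenesis, fell by 1.24 on the log2 scale (SE 0.23, adjusted p = 0.00479 in edgeR), from 8.73 ± 1.15 to 3.75 ± 0.45 CPM (SD, n = 3), and was the 1 call among the 5 other HSP70 and HSP110 genes tested. *TRAP1*, the mitochondrial HSP90, fell by 0.71 (SE 0.14, adjusted p = 0.00718), from 138 ± 3.96 to 84.5 ± 13.6 CPM, the 1 call among 15 other mitochondrial chaperones and proteases. *DNAJC2*, a J-domain protein that sits on the ribosome, rose by 0.88 (SE 0.16, adjusted p = 0.00475), from 47.0 ± 6.03 to 86.5 ± 14.3 CPM, the 1 call among 15 other cytosolic J-domain genes.

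The list of heat shock factors, which also held *HSBP1* and *HSBP1L1*, gave no call among 5 genes tested. At an unadjusted p below 0.05 there was 1 in each direction, *HSF1* higher and *HSBP1* lower. Of all tested genes 17.1% were higher and 15.3% lower at that level. DESeq2 and limma-voom also called 0. *HSF1*, the main activator of heat shock genes, was at 93.1, 98.1 and 88.6 CPM in the controls and at 123, 111 and 140 CPM in the knockdown libraries. Every knockdown library was above every control, yet the log2 fold change of 0.42 (SE 0.13, adjusted p = 0.0521 in edgeR) did not pass. *HSF2* differed by -0.35 (adjusted p = 0.324) and *HSBP1*, a small binding partner of HSF1, by -0.31 (adjusted p = 0.151).

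The remaining lists gave no call with edgeR. Their counts at an unadjusted p below 0.05 stand beside 17.1% higher and 15.3% lower over all tested genes. Of 12 genes of HSP90 and its co-chaperones, 1 was higher at an unadjusted p below 0.05, and DESeq2 called 1 higher and limma-voom 0. That list held *CDC37*, which brings kinases to HSP90, at 0.61 (adjusted p = 0.0131), *CHORDC1* at 0.36 (adjusted p = 0.226) and the constitutive *HSP90AB1* at 0.02. Of 14 genes of the TRiC chaperonin and prefoldin, which fold actin and tubulin, 1 was higher and 1 lower at an unadjusted p below 0.05, with *PFDN2* at 0.56 (adjusted p = 0.0172) and *CCT6A* at -0.27 (adjusted p = 0.151), and DESeq2 called 1 higher and limma-voom 0. Of 14 endoplasmic reticulum chaperones, 1 was higher at an unadjusted p below 0.05 and neither other tool called any. There *HSPA5*, the HSP70 of that compartment, stood at 493 ± 7.19 CPM in controls and 655 ± 76.5 CPM after the knockdown, 0.41 on the log2 scale (adjusted p = 0.0429), and *CALR* at -0.32 (adjusted p = 0.168). For 10 BAG and other HSP70 co-chaperones, 1 was higher at an unadjusted p below 0.05, 0 were called by the other tools, and *BAG5* was at 0.44 (adjusted p = 0.0835) and *SUGT1* at 0.27 (adjusted p = 0.350). Only 2 of 9 listed small heat shock proteins were tested, *HSPB8* at -0.36 (adjusted p = 0.102, unadjusted below 0.05) and *HSPB11* at 0.00 (adjusted p = 0.994), and neither other tool called one.

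**Figure D5:**
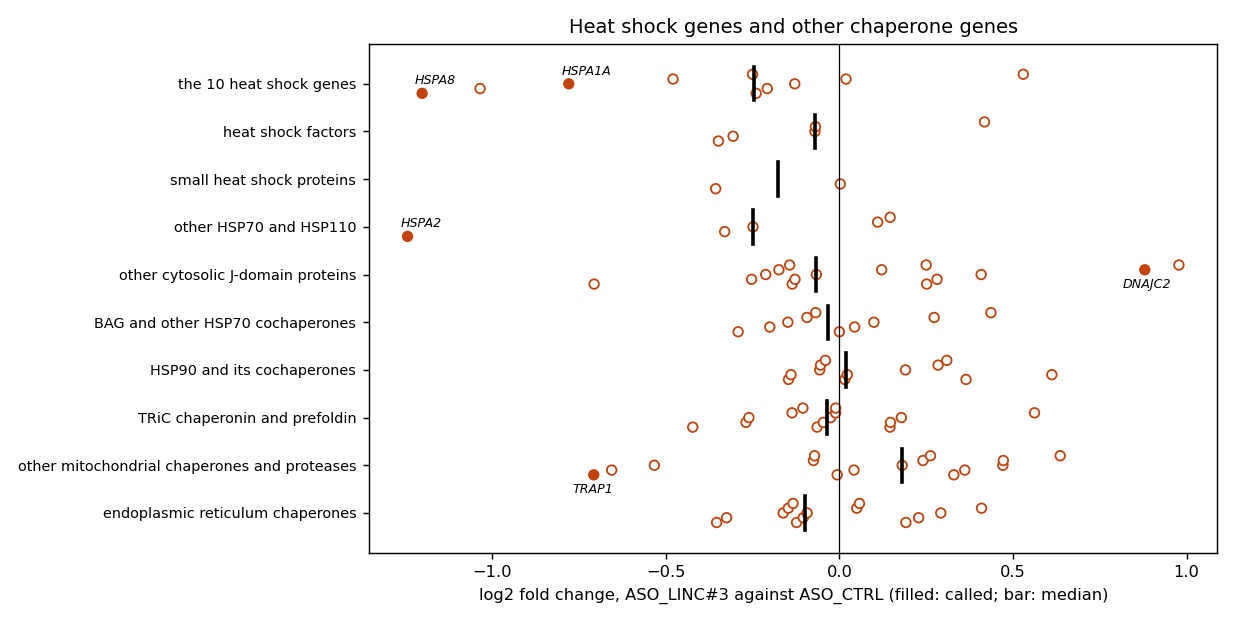
Log2 fold change of the 10 heat shock genes and of 92 other tested chaperone genes by list, ASO_LINC#3 against ASO_CTRL. Filled points passed the thresholds and bars give each list's median, which is -0.24 for the 10 genes and between -0.25 and 0.18 for the other lists.

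Among 10220 genes with a mean count of at least 50, those whose centred log2 CPM ran closest to a heat shock gene over the 6 libraries were found by the root mean square difference. For *HSPB1* they were *RP11-644F5.15* (0.0785), *NUDT16L1* (0.124) and *TMEM97* (0.125). For *HSPA1A* they were *RPL5P34* (0.0476), *PPT2* (0.0478) and *ZNF804A* (0.0646), and for *HSPD1* *RPL36P2* (0.0308), *ATMIN* (0.0364) and *RHPN2* (0.0378).

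Libraries held 3686828 to 10546786 counts on genes. Of all counted reads, 24.8 to 26.3% fell on no gene in controls and 27.9 to 28.1% after the knockdown, without overlap. The part of this difference in the results was not tested. Squamous markers were checked against the label of the line. *KRT5* and *DSC3* were counted in every library, and *KRT6A* had 0 to 1 reads in controls and 4 to 14 after the knockdown. The other 6 of 9 listed markers, *TP63*, *KRT6B*, *KRT14*, *SOX2*, *DSG3* and *PKP1*, had no row, so few of the listed squamous markers went with the label. The summed level of the 3 squamous markers present was 132 to 162 CPM in controls and 90.2 to 97.3 CPM after the knockdown (1 called). The 4 epithelial markers of 6 with a row, all keratins, summed to 11696 to 12642 and 7103 to 12434 CPM (0 called by edgeR). *EPCAM* and *CDH1* had no row. All 5 listed mesothelial markers had a row, and their sum was above that of the squamous markers in every library. It was 778 to 973 CPM in controls and 253 to 371 CPM after the knockdown (2 called), with *CALB2* the largest part. Of these, 3 were lower in every knockdown library, while *WT1* overlapped and *MSLN* in ASO_LINC#3 replicate 3, at 49.6 CPM, was above all controls (26.8 to 30.8 CPM). The 4 fibroblast markers of 8 with a row summed to 409 to 505 and 227 to 256 CPM (3 called), mostly from *COL1A1*. There 3 were lower in every knockdown library and *THY1* overlapped, with 129 CPM in ASO_LINC#3 replicate 3 against 108 to 125 CPM in controls. The study names *COL1A1* and *PDGFRB*, both on this list, among the predicted targets of *SWINGN*. It reports that both rose in H226 when *SWINGN* was activated, so their fall here need not reflect a cell type. The 1 endothelial marker of 4 with a row was at 6.96 to 7.95 and 2.17 to 3.59 CPM (1 called). The 1 leukocyte marker of 5 with a row was at 1.48 to 2.10 and 0.735 to 2.17 CPM. Several of these levels differed between the same libraries as *HSPA8* and *HSPA1A*, and their part in the heat shock results was not tested. In bulk RNA, fewer cells of a kind and less RNA per cell cannot be told apart.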

How the data were processed

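H226 libraries were made from total RNA by dT-primed cDNA synthesis, 3 per group. STAR was the aligner and hg19 the build that the authors used, and they deposited unnormalized counts for each gene name with no pooling of replicates. The counting tool, annotation and strand setting are not given in the sources used here. Rows that name no gene (24.8 to 28.1% of counted reads) were left out. Columns of unmatched samples numbered 0. The study's methods name BJ fibroblasts for this RNA-seq, whereas labels and results name H226, which was used.

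From these counts, edgeR 4.0.16 (R 4.3.3) was run with filterByExpr (14660 of 17222 names kept), TMM scaling, glmQLFit and glmQLFTest, and Benjamini-Hochberg adjustment over all tested genes. Calls needed a log2 fold change past 0.5 in size and an adjusted p under 0.01. SEs are the log2 fold change over the square root of F, and 95% intervals use the quasi-likelihood degrees of freedom. Changes per library are log2 CPM (prior count 2) against the control mean. The biological coefficient of variation was 0.159. Libraries of 1 group differed by 2.50 to 14.0 times counting noise (chi-square per degree of freedom), so none was treated as a library deposited again; this does not show that they are separate cultures. Alternatives included DESeq2 1.42.0, limma-voom (limma 3.58.1), other scalings and filters, offsets for GC content and length (known for 87.2% of tested genes) and leaving out each library. The fits were tested on simulated data.

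The 10 genes and the chaperone lists were chosen with earlier results of these data known. Named genes are the 10, *HSF1* and *HSF2*, the called genes of each list or otherwise the 2 with the smallest p, copies with over 5% of a gene's counts, and the 3 nearest genes by pattern for *HSPB1*, *HSPA1A* and *HSPD1*; *HSP90AB1* was named after its values were seen. Promoter windows came from RefSeq (GRCh38.p14, for the 10 genes the first listed window of each) and, as an alternative chosen after seeing the data, from the GRCh37 genome and Ensembl canonical starts.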

Additional observations from a re-analysis of the deposited data

How the results depend on the processing

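Calls among the 10 genes numbered 2 in the edgeR fit of this re-analysis. They numbered 3 with DESeq2, with an adjusted p below 0.05 and with GC and length offsets with or without the replicate block. With glmTreat (a test against a log2 fold change of 0.5) there was 1. Under the other scalings, filters and dispersion settings, limma-voom and summed copies there were 2. Calls among the other chaperone genes numbered 3 in the same edgeR fit. They numbered 5 with DESeq2, 7 with an adjusted p below 0.05, 0 with glmTreat and 6 with the GC and length offsets, also together with the replicate block. Over all tested genes, 1106 calls in the same edgeR fit became 2465 with an adjusted p below 0.05, 384 with glmTreat and 1718 with the offsets. Leaving out 1 library gave 1 to 5 calls among the 10 genes, 0 to 6 among the other chaperones and 359 to 2616 over all genes. No pairing by replicate number was seen (correlations of the deviations of same-numbered libraries were 0.059, -0.149 and -0.180, and 1 of 6 libraries correlated best with its own number). Deviations from the mean of 3 libraries depend on one another, so these values cannot exclude a pairing. With the replicate number as a block, 656 genes were called in all, 1 of the 10 (*HSPA1A* had an adjusted p of 0.0115) and 0 of the other chaperones.

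The sign turned for genes that were not called: *HSPH1* was -0.11 with the offsets and -0.10 with offsets and replicate block, and over the fits that left out 1 library *HSPH1* ranged from -0.15 to 0.19, *HSP90AA1* from -0.34 to 0.016 (above 0 without ASO_CTRL replicate 1) and *HSPD1* from -0.22 to 0.038 (above 0 without ASO_LINC#3 replicate 3). The cause was not tested. In 13 alternative settings with all libraries, 123 of 129 values of the 10 genes kept their direction and side of the thresholds. An adjusted p below 0.05, no bound on the fold change and glmTreat are not among these settings. *HSPB1* passed with an adjusted p below 0.05, and *HSPA1A* did not pass with glmTreat. With canonical starts, 8 of the 10 genes held a pair of units, against 4 with the first RefSeq window of each gene. At 3 libraries a group and this depth, the 95% intervals of *HSP90AA1* and *HSPE1* still reached -0.62 and -0.76.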
